A study of Arabidopsis thaliana with 8 samples.

Results

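The second step of a sulfate resupply time course is described here, the 2.5 h between 30 min and 3 h after sulfate was given back to starved *Arabidopsis thaliana* seedlings. The comparison was that of the arrays labelled 3 h S with those labelled 30 min S in experiments 1 and 2, paired within each experiment, and it used 4 of the 8 ATH1 arrays of the series (n = 2 per condition). Wild-type Col-0 seedlings were grown in sterile liquid culture in constant light and harvested at 9 days. Full nutrition (FN) seedlings had 3 mM sulfate throughout, and all others were pre-grown for 7 days on 150 µM sulfate and starved of it for 48 h. Starved seedlings were harvested at that point (-S), or 30 min (30 min S) or 3 h (3 h S) after 500 µM sulfate had been added. The -S, 30 min S and 3 h S seedlings therefore shared the starvation medium, whereas FN differed from them in more than sulfate, since the medium listed for starvation also held less nitrate and ammonium. Cultures opened and given KCl are mentioned in the methods, but no array of them was analysed here, and there was no array of starved seedlings harvested 2.5 h later. Sulfate and the time elapsed since the flask was opened cannot be told apart in this step.

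Plants take sulfate up through SULTR transporters, activate it with ATP sulfurylase (APS), reduce it with adenosine 5′-phosphosulfate reductase (APR) and build it into cysteine. In Arabidopsis and other crucifers much reduced sulfur goes into glucosinolates, thioglucosides made from methionine or tryptophan. Methionine side chains are first elongated (BCAT4, MAM and IPMI enzymes), then the amino acid is turned into the core structure by CYP79 and CYP83 cytochromes P450, glutathione transferases, a C-S lyase, glucosyltransferases and sulfotransferases. During sulfate starvation this synthesis is shut down, partly through the repressor SDI1, and beta-glucosidases such as BGLU28 and BGLU30 break glucosinolates down again.

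Between 30 min and 3 h, transcripts of glucosinolate synthesis rose by up to 9.94-fold and starvation-induced transcripts fell by up to 34.4-fold (fitted values). A linear model with condition terms and an experiment block (limma) took log2(signal + 16) from the 8 arrays, for the 17138 of 22746 probe sets whose signal reached an array's detection floor on at least 2 arrays, and a probe set was called at a Benjamini-Hochberg adjusted p under 0.05. Log2 values below are from this fit and are smaller than raw ratios where signals are low. In 3 h S over 30 min S, 66 probe sets were called higher (0.385% of those tested) and 28 lower (0.163%), with median fold changes of 2.42 and 3.04. The signals of all 94 (0.548%) moved the same way in both experiments, as did those of 67.8% of all probe sets tested. The 3 h S and 30 min S signals overlapped for 0 of the 94, where 41.7% of all probe sets tested did not overlap (20.1% with 3 h S above and 21.6% below), and the same comparison chose the 94. Of the 94, 73 were assigned to 1 gene, 47 of the higher and 26 of the lower. The median over all probe sets tested was -0.02. At an unadjusted p under 0.05 there were 1362 higher (7.95%) and 1089 lower (6.35%). Raw ratios past 2-fold in both experiments, with a signal that reached the floor in the higher condition, held for 128 higher (0.747%) and 95 lower (0.554%) probe sets, 86 members among them.

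These calls rest on a small number of arrays. Without the 30 min S array of experiment 1 the fit called 0 probe sets, so that none of the 94 calls held there, with 963 at an unadjusted p under 0.05. Without the 30 min S array of experiment 2 it called 3 higher and 2 lower, and leaving out either 3 h S array gave 2 higher and 3 lower. *IPMI1* and *GGCT2;1* stayed called without each of those last 3 arrays in turn, and *BCAT4*, *BGLU28* and *BGLU30* without either 3 h S array. Without either -S array 16 and 10 were called. The FN arrays enter this comparison only through the estimate of the spread, and without them 776 were called higher and 523 lower, with all 94 members among them. With no replicate block 31 of the 94 were called.

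The first step, 30 min S over -S, had far fewer calls, 0 higher and 1 lower (*APR2*). First-step ratios lay within 1.5-fold in both experiments for 58 of the 66 probe sets called higher and 16 of the 28 called lower, against 81% of all probe sets tested, among which a small first-step ratio was thus common. At the edge of that limit, the lower ratio of *NIT3* was 0.667 (inside) and that of probe set 258977_s_at 0.656 (outside). Of the other 20, 2 rose and 7 fell past 1.5-fold in the first step in the same direction, 2 moved in the opposite direction, and 9 differed between experiments. The difference between the steps was tested as a contrast of its own, and 0 of 17138 probe sets passed (1166 at an unadjusted p under 0.05, or 6.8%). Of the 94 members 89 were under that unadjusted p, 65 higher and 24 lower, in a contrast that shares its arrays with the step that chose them. The smallest adjusted p was 0.0788, shared by 8 probe sets, the members *BCAT4*, *IPMI1*, *IPMI2*, *GSTU20*, 258851_at, *BGLU28* and *BGLU30* and, outside the 94, *APR2*. Without the FN arrays 72 probe sets passed this test, 35 of them members. Movement confined to the second step is therefore a description by the 1.5-fold rule and not a tested property of the group.

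**Figure D1:**
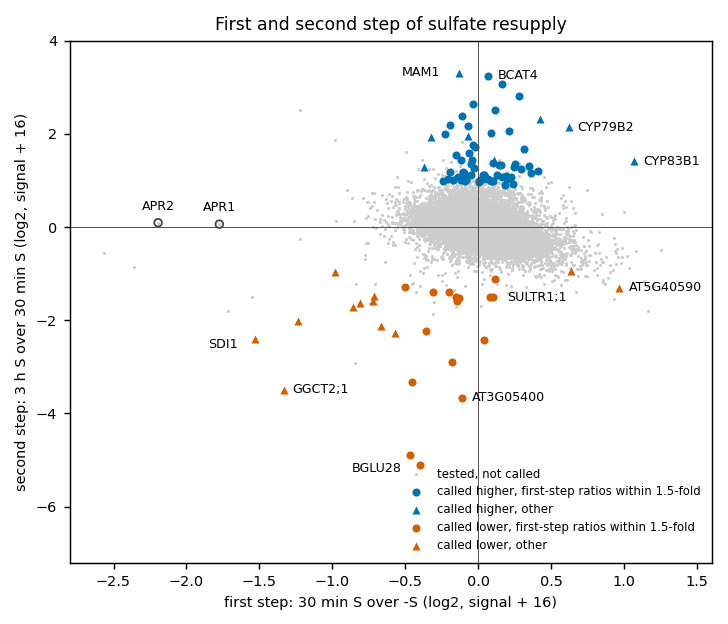
Fitted log2 change in the first step (30 min S over -S, horizontal) and in the second step (3 h S over 30 min S, vertical) for the 17138 probe sets tested, with the 66 called higher in blue and the 28 called lower in orange. Circles mark the 58 and 16 with first-step ratios within 1.5-fold in both experiments and triangles the others, and both axes use the 30 min S arrays. *APR1* and *APR2*, 2 probe sets that were not called in the second step, are circled.

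Whether a transcript had been changed by starvation was read from other arrays (-S and FN) than the second step. Both comparisons came from the same fit and shared its estimate of the spread for each probe set. The counts below are therefore description, and no overlap between the comparisons was tested. Of the 66 called higher, 32 were lower in -S than in FN (0.543% of all tested) and 0 higher. Of the 28 called lower, 25 were higher in -S (0.875% of all tested) and 0 lower. Read the other way, 25 of the 150 probe sets raised in -S (16.7%) were called lower in the second step, against 0.163% of all tested. Of the 93 lowered in -S, 32 (34.4%) were called higher, against 0.385% of all tested. By the fitted value 119 of the 150 (79.3%) moved down in the second step, as did 52.4% of all tested. Of the 93, 79 (85%) moved up, as did 47.5% of all tested. The median second-step log2 change was -0.42 for the 150 and 0.50 for the 93. The other 34 risers and 3 fallers had not been called in -S.

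The genes of methionine side-chain elongation gave the largest rises. All 6 members tested were called higher, as were 0.385% of all probe sets tested (median log2 2.73, against -0.02 over all probe sets). *BCAT4*, the aminotransferase that opens the pathway, had signals of 20.3 and 26.4 in 30 min S of experiments 1 and 2 and of 269.7 and 469.5 in 3 h S, a log2 change of 3.25 ± 0.20 (SE, adjusted p = 0.00193, n = 2 per condition). Its 3 h S signals were still far under the 1002.8 and 995.5 of FN, and it was the single riser called below FN (log2 -1.45, adjusted p = 0.039). *MAM1*, which condenses the keto acid with acetyl-CoA, went from 19.5 and 34.8 to 379.5 and 434.6 (3.31 ± 0.26, adjusted p = 0.00462). Its first-step ratios lay on both sides of 1 (0.591 in experiment 1 and 1.24 in experiment 2). The 30 min S signal of experiment 1 was close to that array's floor of 19.0. *IPMI1*, a subunit of isopropylmalate isomerase, went from 51.8 and 45.2 to 546.5 and 502.9 (3.07 ± 0.14, adjusted p = 0.00106), above its FN signals of 336.1 and 335.0. Its partner *IPMI2* rose by 2.39 ± 0.14 and *MAM3*, a second synthase of the family, by 2.16 ± 0.17. *BCAT3*, an aminotransferase shared with amino acid metabolism, rose least in the list (1.00 ± 0.14, adjusted p = 0.0397).

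The core steps rose as well. In the aliphatic list 8 of 10 members tested were called higher (median 1.82), as were 0.385% of all probe sets tested. *CYP79F1*, the P450 that commits elongated methionine, was below the floor on both 30 min S arrays (2.4 and 6.2) and had 58.4 and 67.6 in 3 h S (log2 1.96, adjusted p = 0.00462). With signals under the floor raised to it, the geometric mean of its ratios in both experiments was 4.37-fold. That value is a lower bound on the average and not on each experiment. Its probe set carries the suffix that Affymetrix gives to sets shared by near-identical transcripts, so the signal may include a close relative. *CYP83A1*, the next enzyme, had 20.4 and 50.2 and then 188.2 and 367.9 (2.51 ± 0.27, adjusted p = 0.0157). Both P450s were above their 30 min S signals on both 3 h S arrays and below their FN signals. *GSTU20*, a glutathione transferase of the pathway, rose by 2.64 ± 0.16, *SUR1*, the C-S lyase, by 1.15 ± 0.14 and *UGT74C1*, a glucosyltransferase, by 1.67 ± 0.21. The desulfoglucosinolate sulfotransferases *SOT17* and *SOT18*, which add the sulfate group, rose by 2.33 ± 0.18 and 1.99 ± 0.16. *FMOGSOX1*, which oxidises the side chain, was at least 3.09-fold higher on the same average, with both 30 min S signals below the floor (5.4 and 8.0 against 32.1 and 61.7). The members without a call were *UGT74B1* (0.71 ± 0.16, adjusted p = 0.125) and *FMOGSOX2* (-0.15 ± 0.26, adjusted p = 0.834).

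Of the tryptophan-derived branch, 3 of 4 members tested were called higher (median 1.78), as were 0.385% of all probe sets tested. *CYP79B3*, a P450 that converts tryptophan, went from 27.4 and 59.7 in 30 min S to 303.8 and 497.7 in 3 h S (2.82 ± 0.29, adjusted p = 0.0138). Its twin *CYP79B2* had a first-step ratio past 1.5-fold in both experiments, with signals of 57.5 and 87.8 in -S, 91.6 and 151.3 in 30 min S and 533.6 and 621.0 in 3 h S (2.14 ± 0.15, adjusted p = 0.00382). *CYP83B1*, the following step, rose in both steps, from 118.5 and 245.1 in -S to 335.1 and 422.3 and then 853.2 and 1247.6 (1.42 ± 0.20, adjusted p = 0.0419). The second step made up 57.1% of its log2 rise. Its first-step and second-step ratios were 2.83 and 2.55 in experiment 1, and 1.72 and 2.95 in experiment 2. *CYP79B2* and *CYP83B1* were the 2 risers that had already moved past that limit at 30 min, and their signals were higher in each successive condition after -S. The sulfotransferase *SOT16* was not called (0.37 ± 0.20, adjusted p = 0.461).

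**Figure D2:**
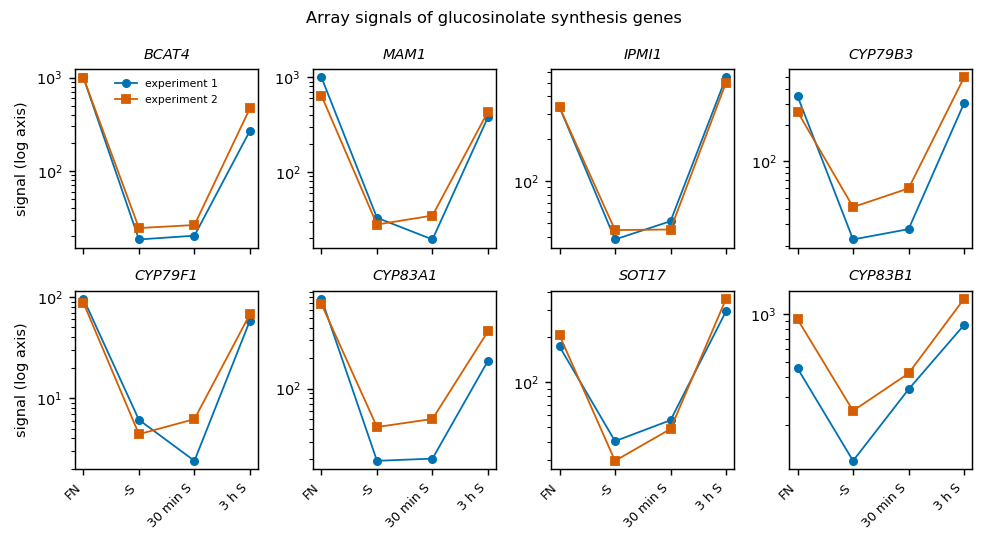
Array signals (log axis) of 8 glucosinolate synthesis genes in FN, -S, 30 min S and 3 h S, with experiment 1 as blue circles and experiment 2 as orange squares joined by lines. Signals of *BCAT4*, *IPMI1* and *CYP83A1* stayed near their -S level at 30 min and stood higher at 3 h in both experiments, whereas *CYP83B1* climbed in both steps. In experiment 1 the -S and 30 min S signals of *BCAT4* (18.5 and 20.3) and *CYP83A1* (19.4 and 20.4) lay near those arrays' floors of 18.8 and 19.0. Their first-step ratios are imprecise there.

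Most members of these 3 lists carry a name here through the study's own tables of responsive genes (5 of 6, 7 of 10 and 4 of 4), so their counts are not independent evidence of a direction. The annotation alone names *BCAT4*, *GSTU20*, *UGT74C1* and *UGT74B1*. Of the MYB factors that activate the pathway 0 of 4 tested were called (median 0.52). At an unadjusted p under 0.05, 2 of them were higher, as were 7.95% of all probe sets tested. *MYB29*, an activator of the aliphatic branch, was below the floor on both 30 min S arrays (11.2 and 9.9) and had 25.0 and 35.9 in 3 h S. By the same bound it was at least 2.08-fold higher on average over the experiments, without a call (adjusted p = 0.123). *MYB28*, its partner, had 195.7 and 238.0 in -S, 98.9 and 125.6 in 30 min S and 175.3 and 187.6 in 3 h S (second step 0.63 ± 0.23, adjusted p = 0.282), so that its 30 min S signals were below those of -S and 3 h S in both experiments. *MYB34* and *MYB51* of the indole branch had 0.41 ± 0.20 and 0.08 ± 0.24.

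The 34 risers without a call in -S were set apart by the adjusted limit alone, and no test compared them with the other 32. By the fitted value 33 of the 34 were below FN in -S, as were 43.5% of all probe sets tested. At an unadjusted p under 0.05, 15 of the 34 were below FN in -S, as were 1693 of the 17138 probe sets tested. *SUR1* (-0.77 ± 0.14, adjusted p = 0.0565) and *BCAT3* (-0.59 ± 0.14, adjusted p = 0.102) of the glucosinolate lists were among the 34. Their second-step median was 1.08 on the log2 scale, their median in -S over FN was -0.24, and their first-step ratios were all within 1.5-fold. In 3 h S all 34 were above FN by the fitted value (median 0.74, against 0.04 over all probe sets tested). Of these, 6 were called above FN (0.414% of all probe sets tested), but that comparison uses the 3 h S arrays that chose them. For the 32 risers lowered in -S the median in 3 h S over FN was 0.26, with 22 of 32 above FN. *AT2G18900* had signals of 40 and 43.5 in FN, 33.1 and 34.6 in -S, 43.1 and 46.9 in 30 min S and 133.2 and 123.1 in 3 h S (1.24 ± 0.13, adjusted p = 0.0166). *AT3G18600* had 226.7 and 191.3, 204.2 and 149.5, 179.8 and 159.0, and 529.6 and 443.1 in the same order (1.44 ± 0.14, adjusted p = 0.0109). *AT3G10530* had 51.2 and 42.6 in 30 min S and 157.7 and 177.7 in 3 h S (1.55 ± 0.18, adjusted p = 0.0225). In each of these 3 genes the 3 h S signals were above all other signals of the series. The sources used here give these loci no function. Named members were *YAO*, a nucleolar protein (0.90 ± 0.13), *TAAC*, a thylakoid ATP/ADP carrier (1.08 ± 0.13), and *PPR596*, a pentatricopeptide repeat protein (1.01 ± 0.15).

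A list of ribosome biogenesis factors, which mature ribosomal RNA in the nucleolus, had values in the same direction without a call. Of 4 members tested 0 passed the adjusted limit and all 4 were higher at an unadjusted p under 0.05, where 7.95% of all probe sets were (list median 0.78). *BRX1-2* had 167.9 and 153.8 in 30 min S and 347.8 and 330.1 in 3 h S (1.01 ± 0.16, adjusted p = 0.0539). *BRX1-1* had 0.86 ± 0.15, *NOP5-2* 0.71 ± 0.15 and *PES* 0.66 ± 0.16. None of the 4 was called in -S. All 4 were named by the annotation and not through the study's tables. The list itself was chosen with earlier results of these data known, so its values are description and not independent support.

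**Figure D3:**
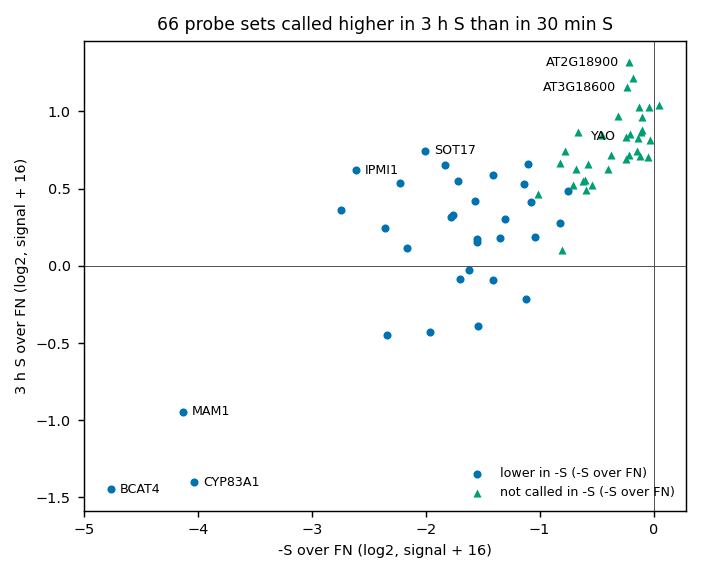
Fitted log2 level relative to FN in -S (horizontal) and in 3 h S (vertical) of the 66 probe sets called higher in the second step. Blue circles mark the 32 called lower in -S, of which 22 were above FN at 3 h by the fitted value. *BCAT4*, *MAM1* and *CYP83A1* were among those below FN by the fitted value, and only *BCAT4* was called below it. Green triangles mark the 34 not called in -S, all of which lie above FN at 3 h.

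The largest falls were those of the beta-glucosidases. *BGLU28* had signals of 3271.6 and 2593.9 in -S, 2441.2 and 1995.3 in 30 min S and 86.0 and 25.0 in 3 h S, a second-step log2 change of -5.10 ± 0.27 (adjusted p = 0.00159, n = 2 per condition). *BGLU30* had 2953.5 and 2014.5, 2173.0 and 1430.2, and 76.8 and 22.2 (-4.90 ± 0.28, adjusted p = 0.00193). Both genes held most of their starvation signal at 30 min and little of it at 3 h, and their first-step values were -0.40 ± 0.27 and -0.46 ± 0.28. The second step made up 92.8% and 91.3% of their log2 fall from -S to 3 h S. *NIT3*, a nitrilase that acts on nitriles from glucosinolate breakdown, fell by 1.38 ± 0.19 (adjusted p = 0.0366). The nitrile-specifier protein *NSP5* had -1.87 ± 0.34 without a call (adjusted p = 0.0785). That left 3 of 4 members of the breakdown list called lower (median -3.39), as were 0.163% of all probe sets tested. *BGLU28* and *BGLU30* are also counted in the list of starvation markers below. Of the 4 members, 3 were named through the study's tables.

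Other genes had first-step ratios within 1.5-fold in both experiments and then fell. *AT3G05400*, a putative sugar transporter, had 1453.9 and 1031.5 in -S, 1591.3 and 807.7 in 30 min S and 89.6 and 62.1 in 3 h S (-3.66 ± 0.38, adjusted p = 0.0144). *BCA3*, a beta carbonic anhydrase, had 2367.8 and 1642.6 at 30 min and 346.5 and 178.7 at 3 h (-2.90 ± 0.22, adjusted p = 0.00462), while its FN signals were 29.5 and 30.1. *PYD4*, an aminotransferase named for pyrimidine breakdown, went from 899.5 and 552.9 to 62.7 and 49.6 (-3.33 ± 0.31, adjusted p = 0.0101). All 3 genes were lower on both 3 h S arrays than on any -S or 30 min S array. *AT1G66760*, of the MATE efflux family, fell by 2.42 ± 0.20, *AOC1*, an allene oxide cyclase of jasmonate synthesis measured with a shared probe set, by 1.52 ± 0.18, and *CHX16*, a cation/H+ exchanger, by 1.5 ± 0.20. *AOC1* was the single call among 8 jasmonate genes tested (list median -0.63), where 0.163% of all probe sets tested were called lower. *AOS*, which acts just before *AOC1*, had -1.41 ± 0.37 (adjusted p = 0.165). *GSTU27*, a glutathione transferase, fell by 1.29 ± 0.14 after a first step of -0.50 ± 0.14. It ended below its FN signals (302.8 and 251.2 in 3 h S against 463.6 and 321.6).

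Of 7 sulfate transporters tested 3 were called lower and 0 higher (median -1.39), and 6 were lower at an unadjusted p under 0.05. Over all probe sets tested 0.163% were called lower and 6.35% were lower at that unadjusted p. *SULTR1;1*, a high-affinity importer of roots, had signals of 256.6 and 463.0 in -S, 319.6 and 432.2 in 30 min S and 90.5 and 158.5 in 3 h S (-1.51 ± 0.17, adjusted p = 0.022). *SULTR4;2*, which exports sulfate from the vacuole, had 554.9 and 479.0, 440.1 and 361.1, and 66 and 78.4 (-2.24 ± 0.22, adjusted p = 0.0114). Neither had a first-step ratio past 1.5-fold. *SULTR1;2*, the other root importer, already stood lower at 30 min, with 1653.3 and 1413.1, 1134.7 and 756.7, and 346.9 and 294.7 (-1.49 ± 0.15, adjusted p = 0.0138). *SULTR1;1* and *SULTR1;2* were still above FN at 3 h (log2 2.23 and 1.62, both adjusted p = 0.0131). *SULTR2;1*, *SULTR4;1* and *SULTR2;2*, for transport between tissues or out of the vacuole, had -1.39 ± 0.24, -1.22 ± 0.21 and -1.16 ± 0.26 without a call (adjusted p from 0.0717 to 0.13), and *SULTR3;4* had -0.62 ± 0.35.

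A further set of fallers had moved in the same direction in the first step. *GGCT2;1*, a gamma-glutamyl cyclotransferase that breaks down glutathione, had 2799.1 and 2064.5 in -S, 1176.3 and 757.2 in 30 min S and 97.2 and 48.4 in 3 h S (second step -3.49 ± 0.15, adjusted p = 0.00101, first step -1.33 ± 0.15). *SDI1*, the repressor of glucosinolate synthesis, had 3847.1 and 2911.9, 1550.3 and 848.6, and 258.9 and 157.8 (second step -2.41 ± 0.35, adjusted p = 0.0464, first step -1.53 ± 0.35). *LSU1*, a small protein induced by low sulfur, fell by 2.02 ± 0.29 (adjusted p = 0.0424) after a first step of -1.24 ± 0.29. *SIP1;2*, an aquaporin-like channel, *AT3G56200*, of an amino acid transporter family, *AT5G40670* and *AT4G33960* belonged to the same 7, with second-step values of -1.62, -1.71, -1.58 and -0.97. A paralog of *GGCT2;1*, *AT4G31290* (GGCT2;2), fell in the second step (-1.40 ± 0.19, adjusted p = 0.0372) with first-step ratios within 1.5-fold. *ICS2*, an isochorismate synthase, fell by 2.27 ± 0.30 and had mixed first-step ratios.

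**Figure D4:**
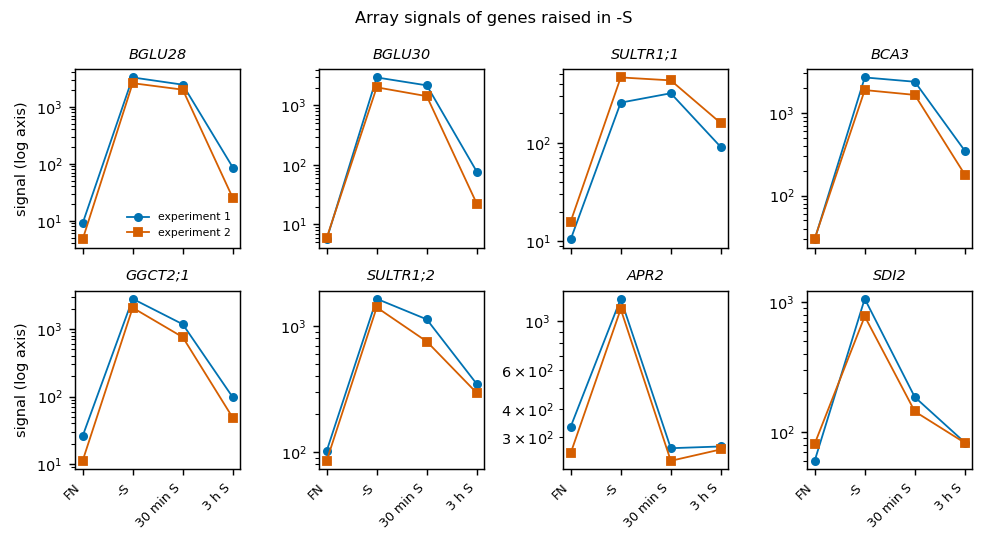
Array signals (log axis) of 8 genes raised in -S, in FN, -S, 30 min S and 3 h S, with experiment 1 as blue circles and experiment 2 as orange squares. *BGLU28*, *BGLU30*, *SULTR1;1* and *BCA3* were within 1.5-fold of -S at 30 min and were lower at 3 h. *GGCT2;1* and *SULTR1;2* went down in each step, and *APR2* was no higher than in FN by 30 min.

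Of the genes of sulfate activation and reduction, 0 of 6 tested were called in the second step (median -0.06, 1 higher and 1 lower at an unadjusted p under 0.05). At that unadjusted p 7.95% of all probe sets tested were higher and 6.35% lower. *APR2*, the main APS reductase of seedlings, had 1266.9 and 1138.1 in -S, 266.8 and 233.9 in 30 min S and 271.7 and 263.5 in 3 h S, a second step of 0.09 ± 0.14 (adjusted p = 0.816) after a first step of -2.19 ± 0.14 (adjusted p = 0.0211). *APR1* had 1752.1 and 1610.0, 534.8 and 429.8, and 498.4 and 505.3 (second step 0.06 ± 0.15, first step -1.77 ± 0.15). *APS3*, an ATP sulfurylase, had a second step of -0.26 ± 0.15 and a first step of -1.22 ± 0.15. *APR3* had similar values in the second and the first step, -1.80 ± 0.37 (adjusted p = 0.109) and -1.72 ± 0.37. *SDI2*, the relative of *SDI1*, had -0.86 ± 0.21 (adjusted p = 0.142) after -2.36 ± 0.21. *APS4* stayed low, with 121.8 and 122.1 in 30 min S and 111.9 and 97.9 in 3 h S against 927.9 and 853.7 in FN (second step -0.19 ± 0.13), and *SIR*, the sulfite reductase, had 0.44 ± 0.14 (adjusted p = 0.242).

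By fitted values, the sulfate genes raised in -S differed in the share of their fall made in the second step. These shares were not compared by a test, and the difference between steps passed the adjusted limit in none of these genes. Among the 18 transporter, assimilation and marker genes called higher in -S, the second step made up 17.3% of the log2 fall of *APS3*, 26.8% of that of *SDI2*, 49.3% of *LSU2*, 61.2% of *SDI1*, 72.4% of *GGCT2;1* and 86.2% of *SULTR4;2*. The difference between steps was 2.29 ± 0.25 for *APR2* and -4.71 ± 0.46 for *BGLU28* (both adjusted p = 0.0788), with opposite signs. In the marker list 5 of 8 members were called lower in the second step (median -2.67), and all 8 were lower at an unadjusted p under 0.05. The shares over all probe sets tested were 0.163% and 6.35%. *LSU2* and *SHM7*, a serine hydroxymethyltransferase, had -1.51 ± 0.29 (adjusted p = 0.0941) and -2.92 ± 0.47 (adjusted p = 0.0587). Of these 3 lists, 16 of the 21 members tested were named through the study's tables of responsive and known pathway genes, so their counts too are not independent of these arrays.

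**Figure D5:**
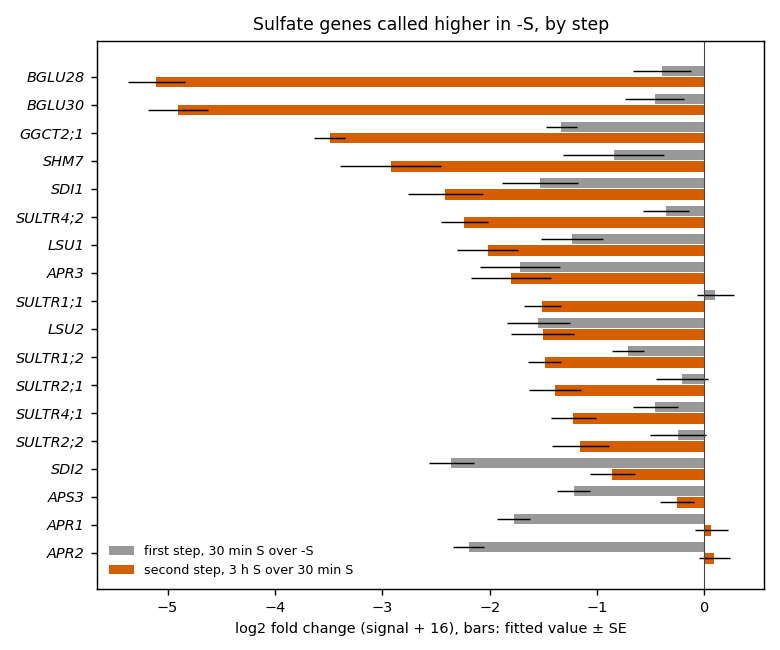
Fitted log2 change ± SE of 18 sulfate genes called higher in -S, for the first step (grey, 30 min S over -S) and the second step (orange, 3 h S over 30 min S), ordered by the second step. *BGLU28* and *BGLU30* have long orange and short grey bars, and *APR1* and *APR2* the reverse.

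The 3 fallers not called in -S were *AT1G51850* (-1.12 ± 0.14, adjusted p = 0.0295), with 55.2 and 82.4 in 30 min S and 13.8 and 33.7 in 3 h S, of which the first is below the floor, and a pair of transcripts that reversed. *AT5G40590* had 28.2 and 26.3 in -S, 73.1 and 64.2 in 30 min S and 16.4 and 20.2 in 3 h S (second step -1.30 ± 0.15, adjusted p = 0.0207, first step 0.97 ± 0.15). Probe set 259445_at, with no gene assigned here, had 29.6 and 40.6, 54.3 and 72.4, and 19.1 and 31.8 (second step -0.94 ± 0.13, adjusted p = 0.04). Both were highest at 30 min on the arrays of each experiment. No riser reversed.

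Markers of tissue composition moved little in this step. *LHCB4.1*, a chlorophyll-binding protein of green tissue, had signals of 1065.1 and 1467.6 in 30 min S and 940.1 and 1446.5 in 3 h S (-0.10 ± 0.27), the root hair expansins *EXPA7* and *EXPA18* had 0.07 ± 0.17 and 0.28 ± 0.17, and *TIP41-like*, a reference gene, had 0.05. Green tissue was thus followed by 1 gene and root hairs by 2, and in whole seedlings fewer cells of a type and less RNA per cell cannot be told apart.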

How the data were processed

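Biotin-labelled RNA of 8 seedling samples was hybridised to Affymetrix ATH1 arrays at a service centre. The authors deposited 1 table of MAS 5.0 signals, intensities on a linear scale for 22746 probe sets, scaled per array by their software to a 2% trimmed mean near 99.4. The sources used here do not give the scaling target or genome build. The number of arrays limits the precision. Each array's floor, the signal at its share of absent calls, lay between 10.9 and 20.3, and medians between 41.9 and 47.6.

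Groups came from the sample titles. limma 3.58.1 in R 4.3.3 (lmFit, eBayes without trend) was fitted to log2(signal + 16) with a term per condition and the experiment as a block, for the 17138 probe sets that reached the floor on 2 or more arrays (5608 were left out), with 3 residual and 3.99 prior degrees of freedom. Adjusted p is Benjamini-Hochberg over all of these. The experiments are numbered in the titles, and the study forms its ratios within them. The differences between experiments correlated across probe sets with r = 0.60 between 30 min S and 3 h S, 0.63 between -S and 30 min S and 0.71 between -S and 3 h S, and with 0.08 to 0.31 between FN and the others. Names came from the platform annotation (13513 probe sets) or, where it gave none, from tables of the study (807), 7923 stayed unnamed and 503 had several genes. Symbols were updated through RefSeq loci.

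Genes named are the 15 largest rises and falls among called probe sets with 1 gene, the 10 largest of each with small first-step ratios, the reversing ones and the members of 34 lists of genes. Other genes and probe sets named were chosen after their values were seen. Members and lists were chosen with earlier results of these data known. The script was tested on simulated data. Alternatives changed the offset, filter, normalization, block, arrays and test. Tables and figures were made with pandas 2.3.3 and matplotlib 3.10.9.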

Additional observations from a re-analysis of the deposited data

Results flagged for a closer look

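*AT5G40590* and probe set 259445_at were called lower in the second step. In both experiments their first-step ratios were past 1.5-fold the opposite way, which held for no other called probe set. The difference between the steps was -2.27 ± 0.26 (log2, SE) for *AT5G40590* (adjusted p = 0.0888, and 0.00568 in the fit without the FN arrays). For probe set 259445_at it was -1.58 ± 0.23 (adjusted p = 0.189, and 0.025 without the FN arrays). Both had signals under 80 on every array, and the 3 h S signal of *AT5G40590* in experiment 1 (16.4) was below the floor of 17.2. With 2 samples per condition no single sample could be examined for standing apart from its group.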

How the results depend on the processing

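Of the 94 members 0 changed direction in a fit that tested them, which is no sign of stability, since the same arrays chose them and all had moved the same way in both experiments. Counts are given as called higher and lower, then as higher and lower with first-step ratios within 1.5-fold in both experiments, against 66 and 28, then 58 and 16. Without an offset they were 14 and 6, then 10 and 3, and with an offset of 32 100 were called higher, 92 of them with such ratios. With no filter they were 28 and 10, then 23 and 6. With no replicate block they were 20 and 11, then 15 and 8. On the 4 resupply arrays alone they were 724 and 510, then 598 and 309, and without the FN arrays 776 and 523, then 671 and 353, with 72 calls for the difference between steps. Leaving out either FN array gives that same fit, since the remaining one determines its own condition and nothing else. Across the 8 fits that left out 1 array each, the counts ran from 0 to 776 and from 0 to 523, then from 0 to 671 and from 0 to 353, and the difference between steps from 0 to 72. The methods' t-test called 410 and 309, then 368 and 256, unadjusted, and 0 of each after Benjamini-Hochberg adjustment. The 2-fold rule in both experiments passed 128 and 95 (0.747% and 0.554% of probe sets tested), then 94 and 42. With a tighter first-step limit 7 lower probe sets were left, and with the test of the difference between steps added 0 and 0. Quantile normalization gave 94 and 41, median centring 68 and 29. At low signals, near floors of 10.9 to 20.3, ratios are imprecise.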

Other observations

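Some gene lists with a raised median in -S had 0 calls in the second step. The 15 suberin genes tested, which build a waxy barrier in root cell walls, had a list median of 1.59 in -S over FN, -0.16 in 3 h S over 30 min S and 1.67 in 3 h S over FN, with 0 called in the second step. *GPAT5*, an acyltransferase of suberin synthesis, had signals of 128.4 and 86.5 in 30 min S and 123.3 and 88.7 in 3 h S, against 18.3 and 25.9 in FN. The 7 flavonoid and anthocyanin genes tested had medians of 1.88, -0.17 and 1.47 in the same order. *DFR*, an enzyme of anthocyanin synthesis, had 309.9 and 90.8 in 30 min S and 257.2 and 127.9 in 3 h S, so that the experiments differed more than the time points. The MYB factors *PAP1* and *PAP2*, which activate anthocyanin synthesis, had lower signals in 3 h S in both experiments without a call. *PAP1* had 501.5 and 100.9 in 30 min S and 159.3 and 43.7 in 3 h S (-1.27 ± 0.45, adjusted p = 0.276), and *PAP2* had 541.1 and 57.6 and then 193.1 and 11.8 (-1.41 ± 0.99, adjusted p = 0.573). Of 7 genes tested in a list of glutathione transferases, 0 were called (medians 1.72, -0.26 and 1.49), and *GSTU27*, which fell in the second step, was not in that list. All 15 suberin members and 3 of the flavonoid members were named through the study's tables of responsive and known pathway genes.

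Of 34 lists, 32 had a probe set tested and 7 had a call in the second step. In the 25 tested lists without one, which held 105 probe sets, list medians ran from -0.34 to 1.01. *GRXS2*, a CC-type glutaredoxin, had 7.4 and 52.1 in 30 min S and 67.4 and 221.8 in 3 h S (1.82 ± 0.56, adjusted p = 0.22), the highest value of its list (10 tested, 0 called). *GRXS1* of the same family had 52.6 and 35.9 in 30 min S and was below the floor on both 3 h S arrays (10.1 and 9.5). With signals under the floor raised to it, *GRXS1* was at least 2.9-fold lower on average over the experiments, without a call (adjusted p = 0.0519). *FER1*, a ferritin that stores iron, had 1176.8 and 1304.1 in 30 min S and 2042.9 and 2261.9 in 3 h S (0.79 ± 0.19, adjusted p = 0.145). *ADC2*, an arginine decarboxylase of polyamine synthesis, had 2418.7 and 2182.4 and then 803.7 and 854.7 (-1.45 ± 0.25, adjusted p = 0.0697). *IGPS*, of tryptophan synthesis, had 240.2 and 221.5 and then 491.2 and 470.8 (1.01 ± 0.18, adjusted p = 0.0785). None of these 5 genes passed the adjusted limit.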
